A study of Mus musculus with 12 samples.

Results

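In each of the 4 groups of mouse embryonic fibroblasts (MEFs) sequenced here, 1 library had 2.38 to 10.6 times as much of the interferon-stimulated transcript Isg15 as the next. Over 176 listed interferon genes its median excess was 2.01 (log2) in the group where it was widest and 0.28 in Null10, where it was narrowest. This account sets those 4 libraries, called high below, against the remaining 8 of the 12, called their sisters. The high library of a group was the one with the most Isg15 in CPM (the count of a gene scaled to its library's total), so it was selected on a measured value and not on a label. It was replicate 1 of WT10, replicate 1 of Null10, replicate 1 of WT40 and replicate 3 of Null40. Because the selection used these same libraries, every difference between a high library and its sisters is given as a description, with no test.

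The study asked which transcripts change in MEFs that lack RTF2, a protein of the replisome. WT10 and WT40 are Rtf2+/+ MEFs, and Null10 and Null40 are Rtf2-/lox MEFs, in which 1 allele is already deleted and Cre removes the floxed one. The number 10 stands for line 1 and 40 for line 2, isolated from different mothers, with WT littermates as controls. All MEFs were immortalized with SV40 large T antigen and had received a Cre retrovirus 72 hrs before harvest, the controls included. Each group had 3 libraries, called technical replicates in the study, and the sources used here do not say if they came from separate dishes or extractions.

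Type I interferons are secreted proteins that bind the receptor formed by IFNAR1 and IFNAR2. The receptor's kinases phosphorylate STAT proteins, which join IRF9 and bind the interferon-stimulated response element (ISRE) in the promoters of antiviral genes. Fibroblasts secrete mainly interferon beta when cytosolic sensors meet viral or misplaced nucleic acid, and the genes it turns on include Isg15, a ubiquitin-like modifier.

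Library totals lay between 39360167 and 44695002 counts, and those of the high libraries between 41461713 and 43769936, within the range of the sisters. Rtf2 followed the genotype labels in every library, with 44.8 to 57.8 CPM in WT and 5.44 to 6.66 CPM in RTF2-deficient MEFs. Fibroblast markers summed to 22163 to 32437 CPM in high libraries and 20119 to 28625 CPM in sisters. The T cell marker Cd3e had no count, Ptprc stayed at or below 0.122 CPM, and the 13 leukocyte markers summed to 5.23 to 14 CPM in high libraries and 4.93 to 11.1 CPM in sisters. Endothelial markers summed to 68.7 to 116 CPM in high libraries and 56.0 to 92.5 CPM in sisters, mostly from Eng. Pecam1 and Cdh5 stayed at or below 0.113 and 0.231 CPM. Epithelial markers summed to 22.1 to 47.6 CPM in high libraries and 45.7 to 90.8 CPM in sisters, mostly from Krt19. No 2 libraries of a group were alike within counting noise, so none was treated as a duplicate deposit. The chi-square per degree of freedom was 20.5 to 42.9 for the 4 pairs of sisters and 54.1 to 180 for the 8 pairs that contain a high library.

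The selected gene, Isg15, lies on chromosome 4 from 156199424 to 156200818 in GRCm38 (Entrez Gene 100038882). Before scaling by TMM (trimmed mean of M values, the normalization used from here on), Isg15 had 58.9, 6.09 and 9.61 CPM in replicates 1, 2 and 3 of WT10. In Null10 it had 16.2, 5.39 and 6.29 CPM. In WT40 it had 728, 101 and 306 CPM. In Null40 it had 13.4, 34 and 361 CPM. The library just inside the rule thus exceeded the one just outside by 6.13, 2.58, 2.38 and 10.6 times in WT10, Null10, WT40 and Null40. The high library of Null10 was the lowest of the 4 and held less Isg15 than every library of line 2 except replicate 1 of Null40. Ranking by the median log2 CPM of the listed interferon genes picked the same library in 4 of 4 groups.

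The promoters of several genes described below carry the ISRE, and 5 windows are shown because their genes stood among the highest differences of their class and the windows lie upstream of the annotated gene. The ISRE was searched as the letters GAAANNGAAA on both strands, from 250 bases before to 50 after each start in RefSeq's promoters of GRCm38.p6, and overlapping matches were each counted. Each is printed 5′ to 3′ on the gene's strand, with the matches in capitals and positions counted from the start of transcription.
Isg15, chr4:156200855-156200916, minus strand, -98 to -37: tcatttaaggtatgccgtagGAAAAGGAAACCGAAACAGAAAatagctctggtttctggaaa
Igtp, chr11:58199502-58199551, plus strand, -54 to -5: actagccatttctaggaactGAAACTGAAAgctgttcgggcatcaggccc
Gbp7, chr3:142530263-142530312, plus strand, -73 to -24: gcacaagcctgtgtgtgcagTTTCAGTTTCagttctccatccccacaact
Ifi205, chr1:174031860-174031909, minus strand, -154 to -105: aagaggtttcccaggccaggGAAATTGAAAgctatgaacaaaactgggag
Stat2, chr10:128270256-128270305, plus strand, -242 to -193: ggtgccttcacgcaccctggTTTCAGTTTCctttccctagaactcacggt
The window of Isg15 holds 3 overlapping matches, which merge into a single run, and the other 4 windows hold 1 each. Of the 27025 genes with a promoter in the table, 3.99% had a match, and of the 11248 tested genes with one, 3.65%. Among the listed interferon genes the share was 41.7% (58 of 139), and among those above both sisters in every group by over 1 (log2) it was 53.4% (31 of 58). The gamma-activated site GAS, searched as TTCNNNGAA, which reads the same on both strands, was in 18% of the listed promoters (25 of 139) and in 8.16% of those of all genes tested. A match describes letters in a window and does not show that a factor bound there. Irf7, Oasl2, Ifi44, Psmb9 and Irf9 had a promoter in the table but no ISRE match in it.

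Of 24100 genes in the table, 14263 passed edgeR's filter on low counts. For each gene, the difference is the log2 CPM of the high library minus the mean of its 2 sisters, averaged over the 4 groups and given with the SD over groups (n = 4). A prior count of 2 was added, which pulls the differences of genes with few reads toward 0. In all 4 groups the high library lay above both sisters for 2197 genes, 15.4% of those tested, and below both for 2234 genes, 15.7%. With a mean difference over 1 as well, 312 genes (2.19%) were above and 54 (0.379%) below. The 312 became 207 when only genes at 1 CPM or more in 6 libraries were tested, and the 54 became 114 without replicate 1 of WT40. The listed interferon genes, 201 in all, of which 176 passed the filter, made up 75 of the 312 and 0 of the 54. Their median difference was 1.28, while that of all genes tested was 0.02. Of the 176, 98 lay above both sisters in every group, 3 below both and 75 on neither side throughout. The other 25 listed genes did not pass the filter, which a gene can meet through the libraries where it is high, so these counts describe the genes and support nothing.

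The median interferon difference was larger in both groups of line 2 than in those of line 1, which was not tested. The median difference of the 176 genes was 0.66 in WT10, 0.28 in Null10, 1.94 in WT40 and 2.01 in Null40. In Null10, 23 of the 176 were higher by over 1 in the high library than in the mean of its sisters, compared with 69 in WT10, 133 in WT40 and 126 in Null40. Over all 14263 genes the same counts were 399 in Null10, 511 in WT10, 711 in WT40 and 718 in Null40. The difference was smallest in Null10 for 128 of the 176 genes and largest in Null40 for 86. The mean over both groups of line 2 exceeded that over line 1 for 160 of the 176, or 90.9%, against 51.3% of all genes tested. Of 107 listed genes with a mean difference over 1, 32 missed the count of 75 because the high library was not the highest in every group, and for 28 of these 32 the high library exceeded the mean of its sisters in the 3 groups other than Null10.

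**Figure D1:**
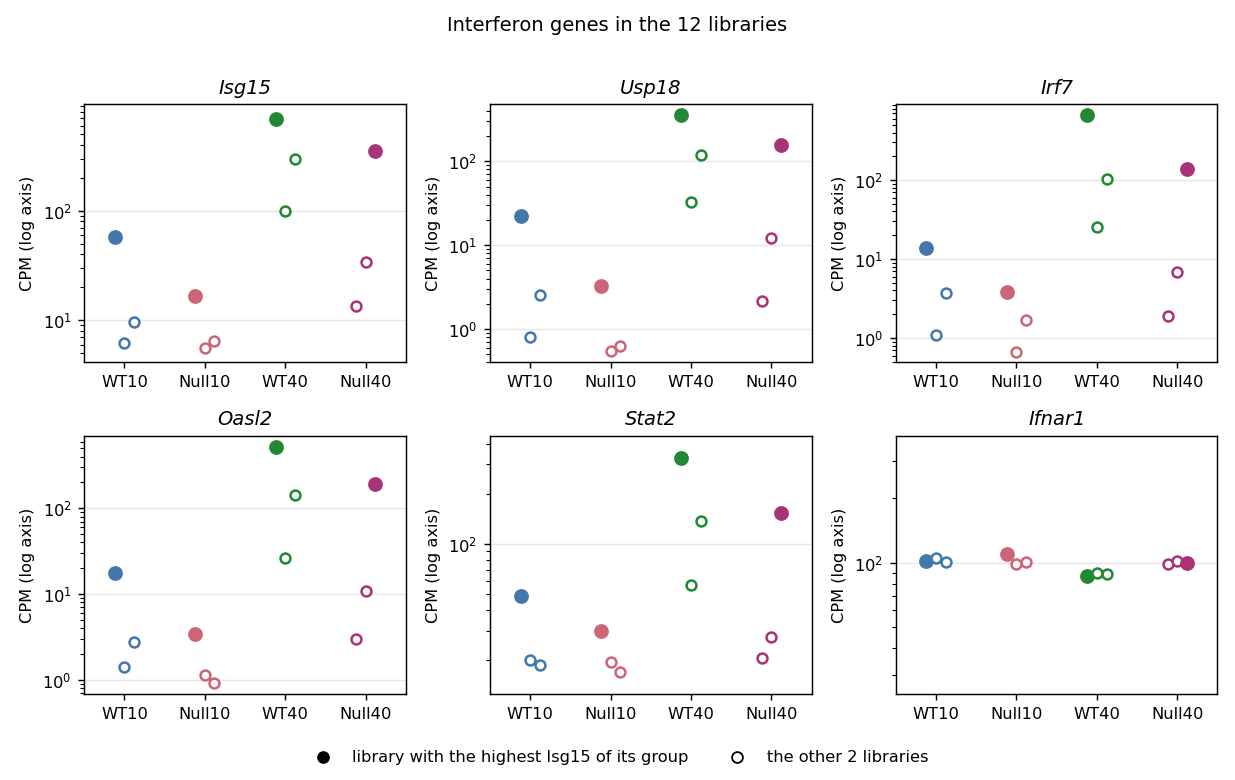
CPM (log axis) of 6 interferon genes in the 12 libraries, with the high library of each group filled and its sisters open. The filled point tops its group for Isg15, Usp18, Irf7, Oasl2 and Stat2, while Ifnar1 stays between 86.6 and 110 CPM.

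The ligands were near the limit of detection. Of 21 interferon genes in the table, 15 had no count in any library, which allows up to 3 counts per library, or 0.0762 CPM in the shallowest, for counting error only. Ifnb1, which encodes interferon beta, had 69 counts in replicate 1 of WT40 and 6 in replicate 3 of that group. It had 5 counts in replicate 3 of Null40, 2 in replicate 2 of Null40, 1 in replicate 1 of Null10 and 0 in the other 7 libraries. Ifna4, an interferon alpha gene, had 13 counts in replicate 1 of WT40, 3 in its replicate 3 and 6 in replicate 3 of Null40, and 0 elsewhere. Both genes thus had most of their counts in the high libraries of line 2. In WT10 no library had a count of Ifnb1 or Ifna4, although its high library stood apart in Isg15. Ifna13, Ifna14 and Ifne had at most 1 count in any library. The ligand Ifnz, the only one to pass the filter, had 14 to 43 counts per library and a difference of 0.16 ± 0.27 (SD, n = 4).

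The receptor genes Ifnar1 and Ifnar2 hardly differed, and a few of the genes downstream of them differed widely. Ifnar1, on chromosome 16, had 102, 105 and 101 CPM in WT10 and 110, 98.6 and 101 CPM in Null10. It had 86.6, 89.7 and 88.8 CPM in WT40 and 98.5, 102 and 100 CPM in Null40. The high library lay above its sisters only in Null10, and the mean difference was 0.02 ± 0.08 (SD, n = 4). Ifnar2 lay between 32.4 and 39.3 CPM in all 12 libraries, with a difference of 0.09 ± 0.07. Of the 25 genes tested among receptors, Janus kinases, STATs and IRFs, 9 lay above both sisters in every group (Ifnar2 among them) and 2 below, and their median difference was 0.24. By over 1 there were 4 above, while Jak1 (0.01), Irf3 (0.00) and Stat3 (0.08) hardly differed.

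Stat2, whose product joins IRF9 in the factor that binds the ISRE (chromosome 10), had 48.6, 19.9 and 18.7 CPM in WT10. In Null10 it had 29.8, 19.3 and 16.9 CPM. In WT40 it had 330, 56.5 and 136 CPM, and in Null40 20.7, 27.5 and 152 CPM. The high library stood above both sisters in every group, by 1.66 ± 0.83 (log2; SD, n = 4), or 3.16 times. Irf9 differed by 1.46 ± 0.58 and was likewise highest in the high library of every group. Irf7, which encodes the factor that amplifies interferon alpha synthesis (chromosome 7), had the largest difference of the class. It had 13.7, 1.09 and 3.67 CPM in WT10 and 3.82, 0.662 and 1.68 CPM in Null10. It had 673, 25.1 and 104 CPM in WT40 and 1.90, 6.80 and 138 CPM in Null40. The difference of Irf7 was 3.38 ± 1.47 (SD, n = 4), and its sisters in WT40 lay above the high libraries of line 1. The genes below both sisters in every group were Ifngr2, which encodes a chain of the interferon gamma receptor (-0.17), and Stat5b (-0.09).

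Among the sensors of cytosolic DNA and RNA, 11 of 22 lay above both sisters in every group and 1, Ddx41, below (-0.26), with a median difference of 1.02. Among the 11, the largest differences were those of Dhx58 (2.67 ± 1.62), Ifi205 (2.56 ± 1.72), Ifih1 (1.68 ± 0.76) and Ddx58 (1.62 ± 0.66; SD, n = 4 each). Ifi203 (2.97) and Zbp1 (2.77) differed by more on average, but their high libraries were not the highest in every group. Ifih1 encodes MDA5 and Ddx58 encodes RIG-I, the sensors of double-stranded RNA, and Dhx58 encodes LGP2, which modulates them. Ddx58 had 80.5, 28.1 and 26.9 CPM in WT10 and 47.8, 29.0 and 26.2 CPM in Null10. It had 434, 88.7 and 189 CPM in WT40 and 33.8, 54.7 and 226 CPM in Null40. The sisters of Ddx58 in line 1 lay close together, while those of line 2 lay further apart. Reads of Ifi205 may be shared with near-identical Ifi200 genes, which the counting could split.

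The OAS and IFIT families had the largest median difference of the gene lists. Of 14 genes tested of the OAS family, whose products make the activator of RNase L, and of the IFIT family, which bind foreign RNA, 11 lay above both sisters in every group, all by over 1, and none below. The median difference of the 14 was 2.41. Oasl2 (chromosome 5) had 17.8, 1.41 and 2.75 CPM in WT10 and 3.39, 1.13 and 0.926 CPM in Null10. It had 517, 26.4 and 141 CPM in WT40 and 2.96, 11.0 and 191 CPM in Null40. Its difference was 3.24 ± 1.38 (SD, n = 4), the largest of the class. That of Oas1a was 3.07 ± 1.04 and that of Ifit3 was 2.69 ± 1.99. Oas2 had no count in either sister of Null10, so no fold is given for it there, and it had 35.4 CPM in the high library of WT40 against 0.287 and 4.49 CPM. Ifit3 had 1024 CPM in the high library of WT40 but 9.53 CPM in that of WT10, where replicate 3 had 8.18 CPM. Several of these genes have close paralogs next to them, so their reads may be shared.

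Of 76 genes tested of the ISG15 system and other antiviral effectors, 47 lay above both sisters in every group and none below, and the median difference was 1.39. Usp18, which encodes the protease that removes ISG15 and damps the receptor (chromosome 6), had 22.1, 0.793 and 2.56 CPM in WT10. In Null10 it had 3.22, 0.540 and 0.634 CPM. In WT40 it had 353, 32.5 and 119 CPM. In Null40 it had 2.17, 12 and 157 CPM. Its difference of 3.43 ± 1.22 (SD, n = 4), or 10.7 times, was the largest of all genes that lay on one side in every group. Ifi27l2a (3.25 ± 1.59), Ifi44 (3.20 ± 1.70) and Mx2 (3.17 ± 2.14) came next within this list. Mx2 belongs to a family of dynamin-like antiviral GTPases, but RefSeq annotates the gene of this assembly as a transcribed pseudogene. The difference of Isg15 itself, which chose the libraries, was 2.60 ± 1.11.

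Among the guanylate-binding and immunity-related GTPases, which attack the vacuoles of intracellular parasites, 6 of 15 lay above both sisters in every group, all by over 1, with a median difference of 2.18 over the 15. Gbp3 had 13.1, 1.61 and 2.17 CPM in WT10 and 3.51, 0.907 and 1.32 CPM in Null10. It had 419, 12.4 and 66.9 CPM in WT40 and 2.14, 5.75 and 119 CPM in Null40. Its difference was 3.34 ± 1.47 (SD, n = 4), and those of Iigp1, Igtp and Gbp7 were 3.33 ± 2.16, 2.58 ± 1.17 and 2.31 ± 1.24. The high library was the highest of each group for all 4 genes.

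Of 25 genes of MHC class I antigen presentation, 15 lay above both sisters in every group and none below, with a median difference of 1.07. Nlrc5, which encodes the transactivator of MHC class I genes, had the largest difference (3.02 ± 0.96; SD, n = 4). It had 2.77, 0.396 and 0.748 CPM in WT10 and 1.07, 0.172 and 0.219 CPM in Null10. It had 55.1, 2.47 and 10.6 CPM in WT40 and 0.337, 0.847 and 10.7 CPM in Null40. Psmb8 (2.11 ± 1.13), H2-Q5 (2.04 ± 1.31) and Psmb9 (2.0 ± 1.34) followed, Psmb8 and Psmb9 encoding subunits of the immunoproteasome. H2-Q5, which RefSeq annotates as a transcribed pseudogene, had 0.0245 to 7.88 CPM, and its reads may be shared with other class I genes.

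**Figure D2:**
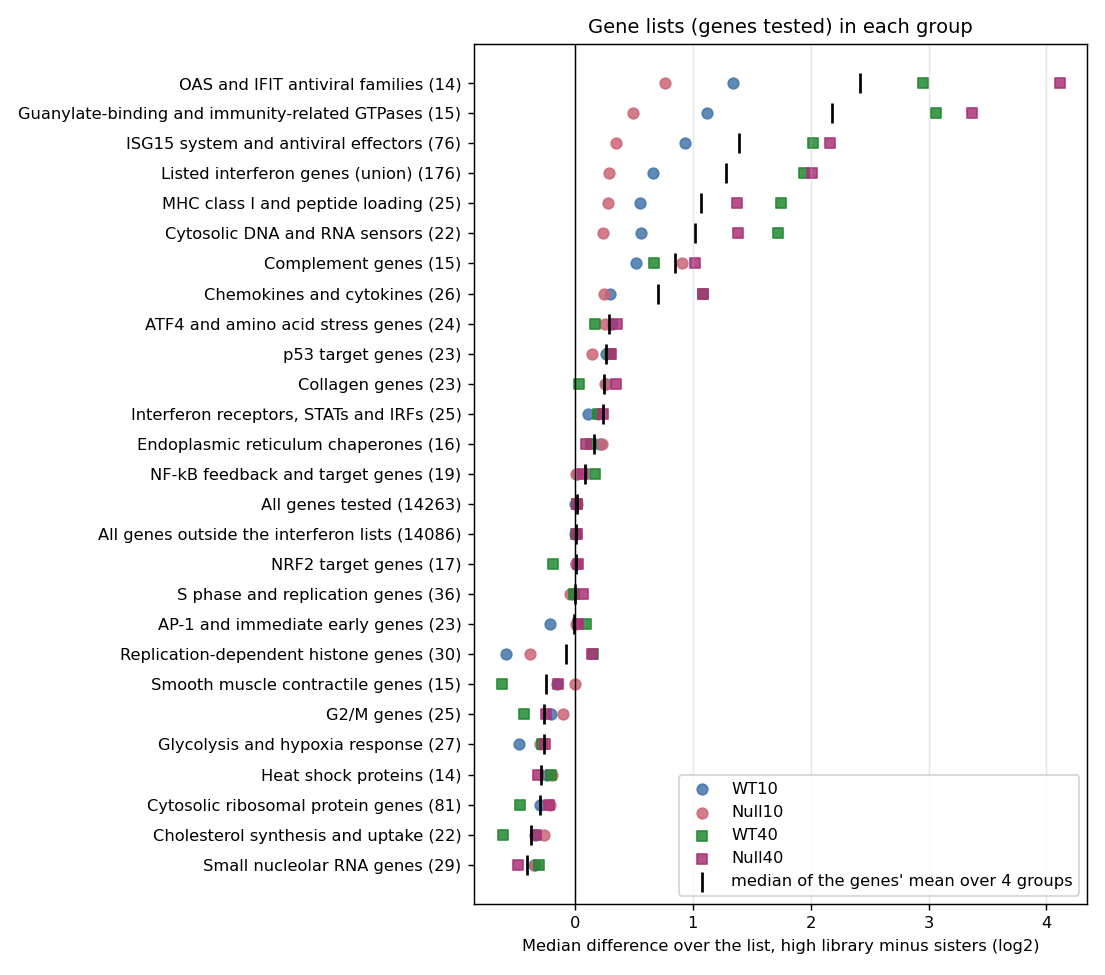
Median difference, high library minus the mean of its sisters (log2), over each gene list, with the number of genes tested in brackets. Circles are the groups of line 1, squares those of line 2, and the bar is the median of the genes' means over 4 groups. The antiviral families lie furthest to the right, at 2.41 for OAS and IFIT genes, and ribosomal protein genes lie left of 0 in every group.

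Other secreted immune genes were mixed. Their counts are to be read against all genes tested, of which 15.4% lay above both sisters in every group and 15.7% below. Of 26 chemokines and cytokines, 8 lay above both sisters in every group and 2 below, with a median difference of 0.70. Ccl5, a chemokine for T cells, had the largest difference by the rule for naming genes within that list (2.0 ± 0.95; SD, n = 4), with 248 CPM in the high library of WT40 against 19.5 and 50.6 CPM. Of 15 complement genes, 8 lay above and 1 below, with a median of 0.85. C4b, which encodes complement component 4, differed by 2.19 ± 0.94. Of 19 NF-kB feedback and target genes, 2 lay above and 3 below, not far from those shares, with a median of 0.08. The adhesion molecule gene Icam1 was the one that differed most (1.30 ± 0.29), at 13.8, 4.14 and 5.98 CPM in WT10. In Null40 it had 5.36, 9.80 and 18.6 CPM.

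Most of the genes above both sisters by over 1 were not listed interferon genes. Being outside the lists does not mean that a gene is not induced by interferon. The chemokine genes Ccl5 and Cxcl10 (1.68), for example, were counted as outside. The 237 outside the lists had a median difference of 1.21 in line 1 and 1.36 in line 2, and 61.2% of them differed more in line 2, whereas all 75 listed genes did. An ISRE match stood in the promoters of 16 of the 169 of them that had one in the table, or 9.47%, against 3.65% of all genes tested. Among the genes below both sisters by over 1, none of 36 promoters had a match. At the share of all genes 36 promoters would hold few, so having none says little. Col8a2, which encodes a chain of the network-forming collagen VIII (chromosome 4), had the largest difference outside the lists among genes with a mean of at least 1 CPM. It had 162, 13.5 and 12.6 CPM in WT10 and 138, 15.7 and 15.2 CPM in Null10. It had 28.4, 5.42 and 6.90 CPM in WT40 and 2.29, 2.80 and 35.6 CPM in Null40. The sisters of each group lay close together, the high library stood apart in all 4, and the difference was 3.20 ± 0.71 (SD, n = 4), or 9.16 times. Unlike Isg15, Col8a2 was higher in the high library of Null10 than in either high library of line 2.

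C1qtnf3, which encodes a secreted C1q and TNF related protein, had 67.3, 10.3 and 12.7 CPM in WT10 and 54.6, 10.03 and 11.6 CPM in Null10. It had 44.5, 11.2 and 15.5 CPM in WT40 and 9.48, 8.78 and 51.1 CPM in Null40. Its high libraries all lay above all 8 sisters, and the difference was 2.28 ± 0.37 (SD, n = 4). Islr, which encodes a secreted leucine-rich protein with an immunoglobulin domain, differed by 2.04 ± 0.55, and Plekha4 by 2.01 ± 0.64. Olfml2a differed by 2.07 ± 0.95, with 0.385 to 16.8 CPM. Tnn, which encodes the matrix protein tenascin N, rested on WT10, where it had 18.9, 0.396 and 0.482 CPM, and its difference of 2.07 ± 2.20 was 0.53 in WT40. Apol9b, an apolipoprotein L gene outside the lists, differed by 2.02 ± 1.27 and had 2 overlapping ISRE matches in a single stretch that both of its promoters in the table contain. In the plot by line the blue points above 0 spread on both sides of the diagonal, and the red ones lie mostly above it.

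**Figure D3:**
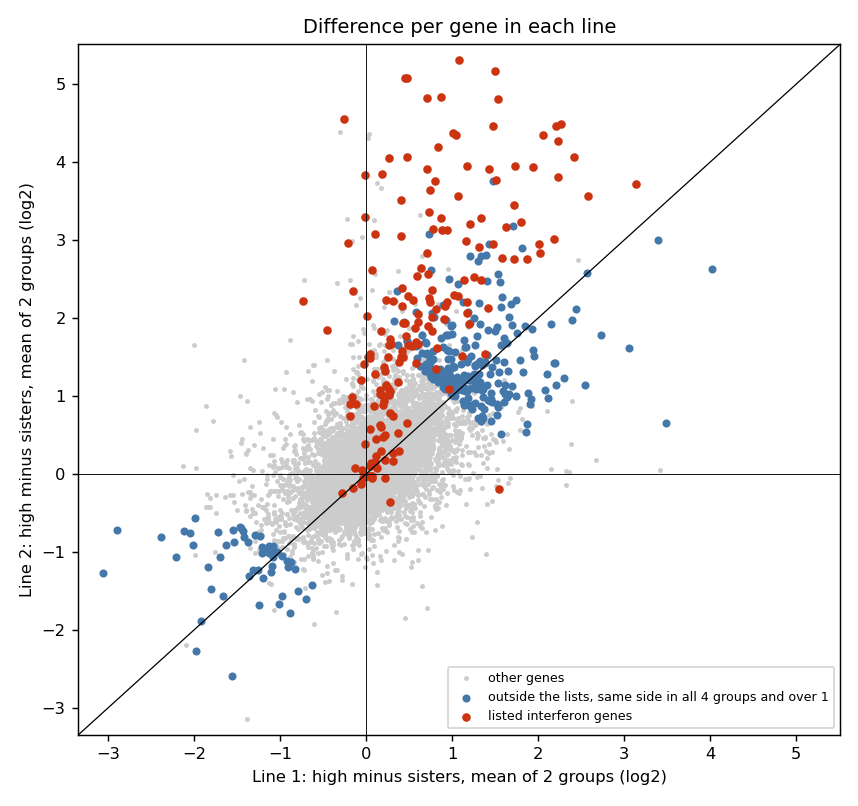
Difference of each of 14263 genes, high library minus the mean of its sisters (log2), averaged over the 2 groups of line 1 (horizontal) and of line 2 (vertical), with the diagonal drawn. Of the listed interferon genes (red), 160 of 176 lie above the diagonal, and of the genes outside the lists that were above both sisters in every group by over 1 (blue, upper right), 61.2%.

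Col8a2 stood out among the collagen genes. Of 23 in that list, 5 lay above both sisters in every group, a share not far from the 15.4% of all genes tested, and none below (1 with upper-quartile scaling). Their median difference was 0.24, and apart from Col8a2 none above throughout differed by over 1. In line 2 a sister exceeded the high library in the list's median log2 CPM, by 8.47 against 8.13 in WT40 and 8.29 against 8.21 in Null40. Small leucine-rich proteoglycans, which bind collagen fibrils, were counted after the values had been seen. Of 13 tested, 6 lay above both sisters in every group and none below, with a median of 0.77, led by Aspn (1.61), Prelp (1.58) and Fmod (1.55). Fmod had 270, 55.4 and 49.7 CPM in WT10 but 49.3, 42.8 and 43.7 CPM in WT40, so the high library of WT40 hardly differed. Of 14 fibroblast markers 3 lay above and 2 below, the latter Vim (-0.50) and S100a4 (-0.62).

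At a mean of at least 1 CPM, the genes furthest below both sisters in every group included genes of keratinized epithelium at low levels. Krt80, which encodes a type II keratin (chromosome 15), had 3.75, 14.5 and 13.1 CPM in WT10 and 4.80, 16.8 and 15.5 CPM in Null10. It had 3.19, 8.25 and 6.90 CPM in WT40 and 20.6, 13.2 and 5.02 CPM in Null40. The high library was the lowest of every group, and the difference was -1.63 ± 0.28 (SD, n = 4). Sprr2k, which encodes a cornified envelope protein, differed by -2.12 ± 1.29 and Crct1, of the same gene complex on chromosome 3, by -1.90 ± 0.26, with at most 8.27 and 3.56 CPM. Syt14 (-1.63 ± 0.89), Shtn1 (-1.60 ± 1.0) and Zdbf2 (-1.46 ± 0.82) differed little in WT40, by -0.32, -0.30 and -0.31. Slitrk5 (-1.46 ± 0.31) and Tmem171 (-1.52 ± 0.57) lay below in all 4. Among 11 keratin genes, a set chosen after the values had been seen, Krt80, Krt7 (-1.38) and Krt19 (-1.07) lay below both sisters in every group and none above. The median of the 11 was -0.30, and Krt16 (1.49) and Krt17 (1.30), at up to 2.63 and 2.48 CPM, differed the other way on average. The epithelial marker Cdh1 went the other way (2.05), at up to 3.0 CPM.

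**Figure D4:**
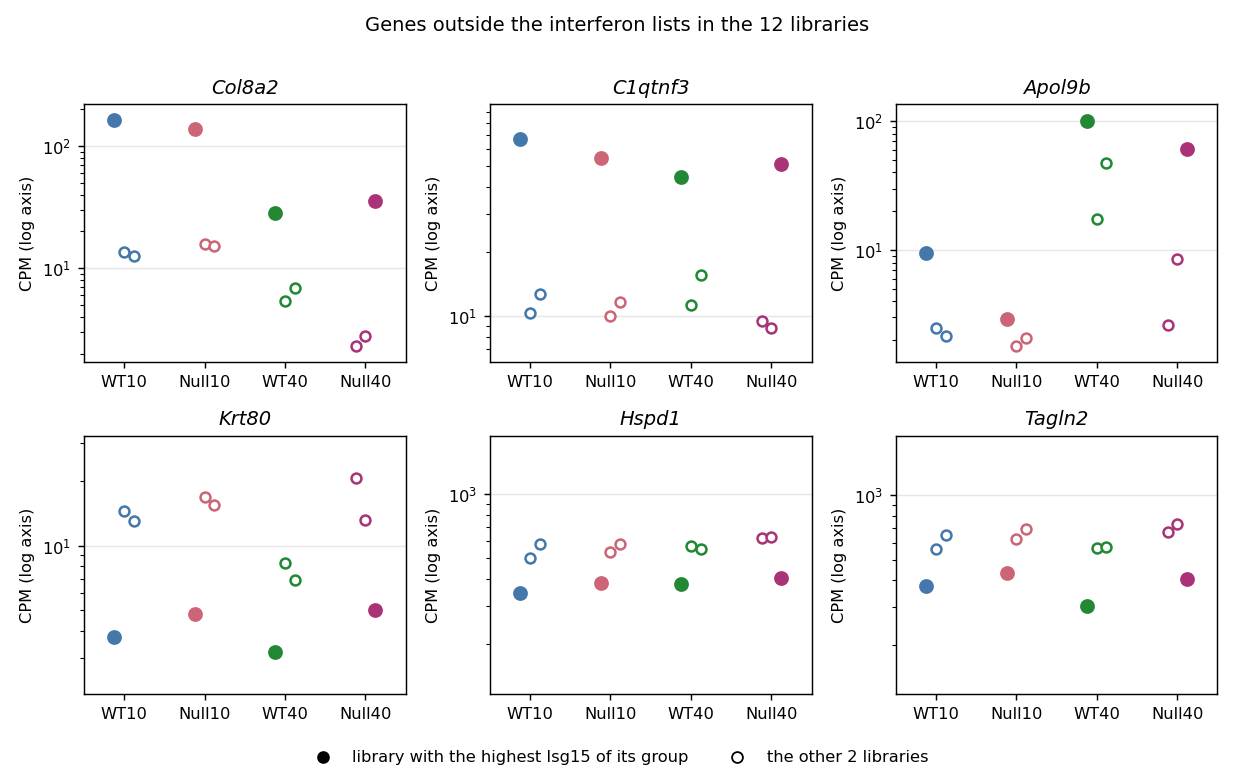
CPM (log axis) of 6 genes outside the interferon lists in the 12 libraries, with the high library of each group filled and its sisters open. The filled point tops every group for Col8a2, C1qtnf3 and Apol9b and is the lowest of every group for Krt80, Hspd1 and Tagln2.

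Ribosomal protein genes were lower in the high libraries by small amounts. Of 81 cytosolic ribosomal protein genes, 72 lay below both sisters in every group and none above, with a median difference of -0.30 and group medians between -0.46 and -0.21. Rps2 had 1352, 1844 and 1806 CPM in WT10 and 1339, 1753 and 1643 CPM in Null10. It had 1122, 1992 and 1608 CPM in WT40 and 1933, 1726 and 1325 CPM in Null40. The difference was -0.48 ± 0.14 (SD, n = 4), with the high library lowest throughout. Rpl39l had the largest difference of the list (-0.86 ± 0.61) but at most 0.361 CPM. The direction of the list held under TMM, RLE and upper-quartile scaling, which gave medians of -0.30 each and 72, 73 and 72 genes below.

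Ribosomal protein genes have short transcripts and high counts, and both properties moved with the difference. By level, 34.3% of genes over 100 CPM lay below both sisters in every group and 9.72% above, compared with 8.08% and 20.5% of those between 1 and 10 CPM. By length of the longest GENCODE transcript, 20.8% of the 3408 genes with the shortest transcripts lay below and 12.3% above, against 9.72% and 17.5% of the 3406 with the longest. Over 4 classes of GC content, of 3407 genes each, the shares ranged from 13.3% to 18.2% below and from 14.4% to 17.8% above. Of 336 other genes of at least 10 CPM with transcripts no longer than the median ribosomal protein gene (1106 bases), 34.5% lay below, with a median difference of -0.12, against 88.9% and -0.30 of the ribosomal protein genes. The median count per gene over the table was 44 to 65 in high libraries and 39 to 51 in sisters, and it was higher in the high library of every group. The part of length, level and library composition in these differences was not tested.

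**Figure D5:**
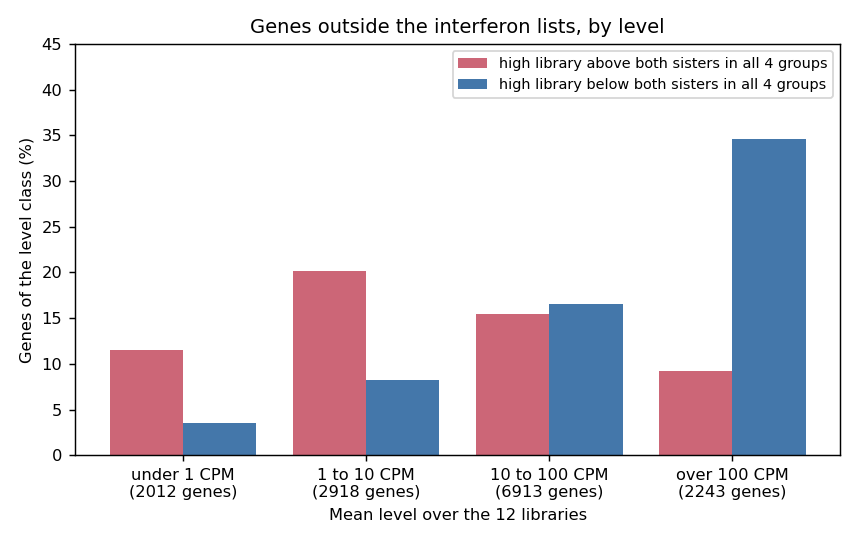
Share of the 14086 genes outside the interferon and ligand lists for which the high library lay above (red) or below (blue) both sisters in all 4 groups, by mean level over the 12 libraries. The share below climbs from 3.58% under 1 CPM to 34.6% over 100 CPM, and the share above is highest, at 20.2%, from 1 to 10 CPM.

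In some other lists part of the genes lay below both sisters throughout and none above. Many genes of the heat shock, glycolysis and G2/M lists lay near or over 100 CPM, a level at which 34.3% of all genes lay below, compared with 16.3% between 10 and 100 CPM, so their counts are to be read against those shares. Of 14 heat shock protein genes, 8 lay below both sisters in every group and none above, with a median of -0.29. Hspd1, which encodes the mitochondrial chaperonin HSP60, had 346, 504 and 581 CPM in WT10 and 385, 534 and 582 CPM in Null10. It had 381, 569 and 556 CPM in WT40 and 625, 629 and 404 CPM in Null40. The high library was the lowest of every group, and the difference was -0.59 ± 0.05 (SD, n = 4). Of 27 genes of glycolysis and the hypoxia response, 11 lay below and none above, with a median of -0.26, led by Adm, which encodes adrenomedullin (-1.0 ± 0.36). Of 22 genes of cholesterol synthesis and uptake, 5 lay below and none above, a share not far from the 15.7% of all genes tested, with a median of -0.37. In each group 1 sister held the highest median log2 CPM of that list (6.45 to 6.67), replicate 2 in WT10, Null10 and WT40 and replicate 1 in Null40. The high library exceeded the other sister in Null10 (5.78 against 5.64) and in Null40 (5.88 against 5.70).

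Of 25 G2/M genes, 13 lay below both sisters in every group and none above, with a median of -0.26. Birc5, which encodes survivin, had the largest difference (-0.44 ± 0.18; SD, n = 4). Of 36 S phase and replication genes, 7 lay below, a share not far from the 15.7% of all genes tested, and 2 above. Their median was 0.00, and the gene that differed most was Ung (-0.34 ± 0.14). Ccnd1, the cyclin D1 gene that starts the cell cycle and named here after its values were seen, differed by -1.40. It had 56.9, 204 and 235 CPM in WT10 and 37.5, 158 and 174 CPM in Null10. It had 234, 321 and 280 CPM in WT40 and 245, 209 and 102 CPM in Null40. The gap was wide in WT10, Null10 and Null40 and narrow in WT40. Ccnd2 (-0.12) and Ccnd3 (-0.02) hardly differed, and of 10 genes of D-type cyclins and their inhibitors, a set also chosen after its values were seen, 2 lay below both sisters in every group and 1 above. Of 15 smooth muscle contractile genes, 4 lay below and none above (median -0.24), led by Tagln2 (-0.74 ± 0.13). The median level of that list was over 100 CPM in every library. At that level 34.3% of all genes lay below, a share that 4 of 15 does not exceed.

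Of 23 p53 target genes, 13 lay above both sisters in every group and 1 below, with a median of 0.26. Of all genes tested 15.4% lay above and 15.7% below, and of those over 100 CPM 9.72% and 34.3%. SV40 large T antigen, which binds p53, was present in all groups. Trp53inp1, a p53 target that promotes autophagy, had 219, 109 and 105 CPM in WT10 and 156, 103 and 99.3 CPM in Null10. It had 321, 123 and 160 CPM in WT40 and 96.4, 111 and 233 CPM in Null40. The difference was 1.01 ± 0.26 (SD, n = 4), and no other gene of the list differed by over 1. The p53 target Cdkn1a, which encodes the inhibitor p21, differed by 0.43. With upper-quartile scaling 11 of the 23 lay above.

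Of 24 ATF4 and amino acid stress genes, 11 lay above and 1 below, with a median of 0.29. The counts of this paragraph are to be read against all genes tested, of which 15.4% lay above and 15.7% below. Trib3, which encodes a pseudokinase induced by ATF4, differed by 1.12 ± 0.38 (SD, n = 4). The cystine transporter gene Slc7a11 differed by 1.11 ± 0.50, and it led the 17 NRF2 target genes as well, of which 2 lay above and 4 below. Of 16 endoplasmic reticulum chaperone genes, 7 lay above and none below (median 0.16), with Dnajb9 at 0.51 ± 0.08. Of 23 AP-1 and immediate early genes, 4 lay above, a share not far from the 15.4% of all genes tested, and 2 below. Within that list Fos differed by 0.67 ± 0.10. Of 29 small nucleolar RNA genes, 9 lay below and none above (median -0.41), with Snora61 at -1.0 ± 0.34 and at most 1.13 CPM. Of 30 replication-dependent histone genes, 2 lay below, with H2bc9 at -0.94 ± 0.63 and at most 0.368 CPM.

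The genes most like Isg15 within groups included listed genes with large differences and unlisted ones with small differences. Over the 12 libraries, with each group's mean removed, the Pearson's r to Isg15 was 0.99 for Irf9, Oasl2, Oas1a and Usp18. The unlisted genes with the highest Pearson's r to Isg15 on the log2 scale were Mdfic, Klf11 and Slc35a5 (0.99 each), and Fndc10 and Arhgef2 (0.98 each). Mdfic, which encodes a regulator of transcription, had 90.9, 72.4 and 75.5 CPM in WT10 and 92.0, 83.7 and 81.2 CPM in Null10. It had 67.4, 55.9 and 60.6 CPM in WT40 and 67.7, 72.6 and 91.1 CPM in Null40. The differences were 0.26 ± 0.10 for Mdfic and 0.50 ± 0.15 for Klf11 (SD, n = 4). The 12 points share groups and the 4 libraries that were selected on Isg15, and these genes are the highest of all those screened.

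The high libraries, which were selected on Isg15, lay together at one end of the profile. The first principal component of log2 CPM, with group means removed, held 49.3% of the variance, and its scores were 22.8 to 41.6 in the 4 high libraries and -29.9 to -7.33 in the 8 sisters. The deviations of the high libraries from their group means correlated across genes with a Pearson's r of 0.309 to 0.654 over the 6 pairs of high libraries. The 4 groups may therefore not be independent repeats, and the SD over groups and the counts over all 4 take no account of that. Genes that differed by over 1 between the high library and the mean of its sisters numbered 750 in WT10, 634 in Null10, 890 in WT40 and 875 in Null40. Between the sisters they numbered 410, 319, 464 and 369. A mean of 2 libraries varies less than 1 library does, so these counts are not on the same footing. The sisters were not alike in interferon genes in line 2. Replicate 3 of WT40 exceeded replicate 2 in 157 of the 176 listed genes, and replicate 2 of Null40 exceeded replicate 1 in 144, against 7441 and 7365 of all 14263 genes. In line 1 the sister with more Isg15 exceeded the other in 97 of 176 in WT10 and in 84 of 176 in Null10, against 7058 and 6906 of all genes.

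The labelled comparisons read these libraries as spread within groups. In edgeR's quasi-likelihood test with terms for line and genotype, 174 genes (1.22%) were lower and 72 (0.505%) higher in RTF2-deficient MEFs where calls needed an adjusted p (Benjamini-Hochberg) under 0.05 as well as a log2 difference over 1 in size. Of the 176 listed interferon genes, 3 were called lower and none higher, 7 had an adjusted p under 0.05 and 33 an unadjusted p under 0.05. The 3 were Tyk2, which encodes a Janus kinase that works at the receptor (-1.34), Uba7, the E1 enzyme of ISG15 (-2.45), and Shfl (-1.45), named after their values were seen. With a replicate block 1 listed gene was called, and with DESeq2 7 were. For Isg15 itself the log2 difference, RTF2-deficient minus WT, was -1.42 with a standard error of 0.81 and an edgeR adjusted p of 0.272. The fit does not pair libraries, and in line 1, where same-numbered libraries deviated together, Isg15 was lower in the RTF2-deficient library of each of the 3 pairs. In line 2 the numbers did not match. Sets formed there by the highest correlation, and so from the values themselves, had 692 and 348, 99.2 and 13.5, and 296 and 34.3 CPM in WT40 and Null40. No paired test was made. Without the 4 high libraries 18 of 174 listed genes were called lower, among 319 calls in 14223 genes. That fit drops the libraries with the most Isg15, which narrows the spread of the genes that vary with it, so its calls are a description. Without replicate 3 of Null40 alone 15 of 177 listed genes were called, among 277 calls in 14453 genes. Leaving out replicate 2 of WT40 gave 5, either of replicates 2 and 3 of WT10 gave 2, and any of the other 8 libraries gave 1.

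Between the lines the same test called 545 genes (3.82%) higher and 274 (1.92%) lower in line 2. Of the 176 listed interferon genes, 107 were called higher and none lower, and all 14 OAS and IFIT genes were among them. The 107 fell to 50 without replicate 3 of Null40, to 54 and 60 without replicates 2 and 3 of WT10, and to 66 without replicate 1 of WT40. Isg15 was higher in line 2 by 3.83 on the log2 scale, with a standard error of 0.88 and an edgeR adjusted p of 0.0133. Without the 4 high libraries 59 of 174 listed genes were called, among 545 calls in 14223 genes, which is likewise a description. The interaction of line and genotype was called in 150 genes, of which 0 were listed interferon genes, 6 of them having an unadjusted p under 0.05 in edgeR's test. Leaving out single libraries lowered the 150 to between 59 (without replicate 2 of Null40) and 140 (without its replicate 3), with no listed gene called in any of these fits. It was 68 without replicate 3 of WT40, 69 without replicate 2 of Null10, 70 without replicate 2 of WT10, 86 without replicate 1 of Null40 and 90 without replicate 1 of Null10. Without replicate 3 of Null40, 57 listed genes had an unadjusted p under 0.05. The p-values of these tests measure the spread between technical replicates, and the lines are the only replicates of embryos.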

How the data were processed

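RNA of 12 MEF libraries was sequenced as single reads. Whole-number read counts, not normalized, were deposited for each Entrez Gene identifier and library. The methods name Salmon and tximport with mm10 gene models, the submitters' notes HTSeq and mm10, so the counting tool, and whether it used strand, is not settled. Every column was matched to its sample by name. Symbols and positions came from RefSeq's GRCm38 (24045 of 24100 identifiers), transcript lengths and GC content from GENCODE M21 (95.5% of genes tested). Genes passing filterByExpr in edgeR 4.0.16 (R 4.3.3) were normalized by TMM, and log2 CPM used a prior count of 2. Genotype, line and their interaction were tested with glmQLFit and glmQLFTest, calls needing a Benjamini-Hochberg adjusted p under 0.05 together with a difference over 1 (log2). The genotype test was checked on simulated data with counts drawn independently for each library, whereas the libraries here deviated together. The line and interaction tests had no such check. Standard errors are the unshrunken coefficient over the square root of F.
The members and lists were chosen with earlier results of these data known. Named genes were Isg15, Rtf2, the ligands, receptor and signalling genes, the 4 largest differences of each interferon list, the largest of each other list, the 8 most positive and 8 most negative genes outside the lists with a mean of at least 1 CPM, and the 5 most like Isg15, apart from a few that are not reported here. Genes given as further members of a list, proteoglycans, keratins, Ccnd1 and the set around it were chosen after their values were seen. Alternatives were RLE and upper-quartile scaling, other filters and prior counts, edgeR and DESeq2 1.42.0 coefficients with group as a block, a replicate block, and each library or group left out.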

Additional observations from a re-analysis of the deposited data

Results flagged for a closer look

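The replication-dependent histone genes had median differences of opposite sign in the lines. The high library minus its sisters was -0.58 (log2) in WT10 and -0.38 in Null10, but 0.16 in WT40 and 0.15 in Null40, over 30 genes. This difference between lines was not tested, and most of these genes had few reads. No test for a single outlying sample was applied, as each group had 3 libraries.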

How the results depend on the processing

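No named gene that lay on one side in every group changed direction under the alternatives run, nor did the median of the listed interferon genes. Rtf2 (0.0027) and Ifnar1 (0.02), which did not lie on one side, changed sign with single libraries or groups left out, to as low as -0.05 and -0.02, and Rtf2 also with no filter. The median of the S phase list, at 0.0005 with TMM, was -0.0015 with upper-quartile scaling. With genes kept only at 1 CPM or more in 6 libraries, the genes above both sisters in every group by over 1 numbered 207 instead of 312, of which 199 were shared, since fewer low genes were tested. Leaving out single libraries or whole groups gave 268 to 437 such genes, and 52 to 114 below instead of 54, the highest without replicate 1 of WT40 (102 without that whole group). The median difference of the listed interferon genes ranged from 0.93 to 1.57. RLE and upper-quartile scaling gave 312 genes above each, and 54 and 56 below. The genotype calls ranged from 177 to 317 instead of 246 with single libraries left out, and the line calls from 613 to 870 instead of 819. Without the 4 high libraries the line calls fell to 545, of which 499 were shared, and the genotype calls were 319. The interaction calls ranged from 59 to 140 instead of 150, an alternative chosen after seeing the data. With a replicate block 227 genotype and 755 line calls were made, and 1 listed interferon gene had a genotype call. DESeq2 made 295 genotype calls, 7 of them listed interferon genes, and 886 line calls, 114 of them listed. Replicate numbers did not pair the samples in both lines. The deviations of same-numbered WT and RTF2-deficient libraries correlated at 0.430 to 0.625 in line 1, where every library correlated best with its own number, but at -0.587 to 0.170 in line 2. In line 2 the highest correlations were between different numbers, at 0.654 for replicates 1 and 3, 0.612 for replicates 2 and 1 and 0.367 for replicates 3 and 2 of WT40 and Null40. The labels do not say what the numbers mark, and the block does not account for such sets. Of single named genes, only Crct1 moved by over its SD, to -1.64 with a prior count of 5 and to -2.25 and -2.29 as edgeR and DESeq2 coefficients. Depth limits the ligands, and with 3 technical replicates per group nothing here measures spread between embryos.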
